A study of Mus musculus with 9 samples.

Results

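The genes of the cytoplasmic ribosomal proteins were examined in RNA-seq counts from mouse CD4+ T cells. Members were the rows whose Ensembl ID maps to Rpsa, Rplp0, Rplp1, Rplp2 or a symbol of Rpl or Rps followed by a digit, without pseudogenes named with -ps, without Rps6k kinases, and with at least 1000 counts summed over 9 samples. The symbol rule took 92 rows of the 39017 gene IDs in the table, and 69 of them met the count minimum. Of the 69, 24 encode proteins of the small 40S subunit and 42 encode proteins of the large 60S subunit. The other 3 fit the rule by name only: Rps19bp1 and Rpl7l1 encode no subunit of the ribosome, and Rpl37rt is typed as a transcribed processed pseudogene in GENCODE M21. All 69 passed the filter on low counts and were among the 14693 genes tested.

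The cKO group held 4 samples, replicates 2, 6, 7 and 8, from male C57BL/6 mice with CD4-Cre (+/-) and a floxed Kdm6a allele on their single X chromosome (floxed/y Kdm6a). The WT group held 5 samples, replicates 1, 3, 4, 5 and 9, with the same floxed allele and CD4-Cre (-/-), so the floxed allele was shared by both groups and the presence of Cre was not. All cells were CD4+ T cells from lymph node; age and any treatment were not given in the labels. The counts came under a table name that includes stim, a term no label explains, so whether the cells had been stimulated before RNA was taken is not known, and the levels below hold for whichever state it was. The series asked how the transcriptome of these cells depends on Kdm6a, which encodes a demethylase of histone H3 lysine 27, and CD4-Cre recombines wherever the Cd4 promoter has been active, which includes the thymic precursors of both CD4+ and CD8+ T cells. The labels did not say whether each sample was taken from its own mouse, and p-values therefore rest on a spread among 9 samples that may be technical in part.

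Each cytoplasmic ribosome joins a small subunit, which reads the mRNA, to a large subunit, which forms the peptide bond. Their proteins are made from separate genes that are usually transcribed at steady high rates, and many of their mRNAs begin with a run of pyrimidines, the 5′ terminal oligopyrimidine or TOP motif, through which mTOR signalling mainly controls how much they are translated. In T lymphocytes, production of ribosomes increases when a resting cell is activated and starts to divide.

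Total counts ran from 20587482 to 26387488 per sample, and all levels below are CPM (read counts brought to a common library total, with TMM factors that correct for library composition) unless another scale is named. Kdm6a averaged 42.7 CPM ± 1.48 in cKO samples (SD, n = 4) and 62.7 CPM ± 1.59 in WT samples (SD, n = 5), and all cKO samples were below all WT samples. Its log2 fold change was -0.55 (SE 0.04, edgeR adjusted p = 2.89e-05), and its Y-linked homologue Uty rose by 0.24 (SE 0.05, edgeR adjusted p = 0.00695; 0.0516 with offsets on GC content and length). The 5 CD4 T markers summed to 1652 to 1762 CPM in cKO samples and 1627 to 1782 CPM in WT samples. Among them Cd4 rose (log2 fold change 0.13) and the receptor chains Cd3g (-0.23) and Cd3d (-0.19) fell, calls that held in 14, 14 and 12 of 22 alternative fits. Cd3d lost its call with upper-quartile scaling (edgeR adjusted p = 0.0760), library totals (0.0808) and offsets on GC content and length (0.109), and Cd3g with library totals (0.0503). Summed markers of other cells were low: B cell markers 3.04 to 4.10 CPM in cKO samples and 3.40 to 5.73 CPM in WT samples, CD8 markers 15.1 to 19.1 and 11.9 to 15.1 CPM, natural killer markers 13.1 to 47.3 and 7.64 to 20.5 CPM, myeloid markers 14.1 to 18.4 and 13.7 to 18.1 CPM, and dendritic markers 2.69 to 3.75 and 2.21 to 3.57 CPM. Erythroid markers summed to 0.447 to 0.816 CPM in cKO samples and 0.425 to 1.03 CPM in WT samples, with Hbb-bs at 0, and stroma and vessel markers, nearly all Pecam1, to 84.3 to 106 CPM in cKO samples and 96.8 to 119 CPM in WT samples. Of these marker genes Cd79b (-0.91) and Itgam (-1.82) fell in cKO samples and Cd8b1 rose (0.28, called in 16 of 22 alternative fits), at 14.1 ± 1.23 CPM in cKO samples and 11.6 ± 0.772 CPM in WT samples. The lists did not move as one: among B cell markers Ms4a1 had a log2 fold change of 0.90 and Blk one of -0.90, and the other myeloid marker tested, Csf1r, had 0.12, none of them called. Both natural killer markers tested were higher in cKO samples without an edgeR call, Nkg7 at 0.98 (edgeR adjusted p = 0.0599; DESeq2 called it, 0.0185) and Eomes at 0.91 (edgeR adjusted p = 0.115). Their part in the ribosomal protein values was not tested. In bulk RNA, a change in the share of a cell type and a change in RNA per cell cannot be told apart, and CPM give each gene's share of the mRNA counted, not the amount per cell.

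The mRNAs of the member genes were nearly level between cKO and WT cells. Of the 69 members, 2 were called higher in cKO samples (2.9%), among them Rpl15, and 0 were called lower (edgeR quasi-likelihood test, Benjamini-Hochberg adjusted p below 0.05 over all genes tested). Over all 14693 genes tested the same rule called 15.8%, with 7% higher and 8.82% lower, which is 1028 and 1296 genes (1349 and 1026 when scaled by library totals alone). Of the genes that averaged 100 CPM or more it called 20.3%, with 5.66% higher and 14.6% lower. At an unadjusted p below 0.05, 6 members were higher and 2 lower, against 14.9% and 16.3% of all genes tested. DESeq2 called 4 members higher and 0 lower. The share that DESeq2 called over all genes is not given here, so its counts, also in the lists below, have no background beside them.

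Differences between the groups were small in every member. The median log2 fold change of the 69 was 0.03 (all genes tested: 0.0012), and single members ran from -0.22 (Rpl37) to 0.28 (Rpl36a), which is 14.3% lower to 21.1% higher in cKO samples. 58 members lay within 10% of no difference. By its estimate none of the 69 differed by 1.25-fold or more in either direction, while 17% of all genes tested did. The genes tested include rows with fewer counts than the minimum set for members. How much of this contrast comes from that minimum was not tested. The 95% interval of the fold change lay within 1.25-fold both ways for 63 members (91.3%), against 54.1% of all genes tested and 82.7% of those with at least 100 CPM. Those outside were Rpl36a, Rpl9, Rpl17, Rpl28, Rpl37 and Rps27a. With 1 sample left out at a time, 56 to 62 members had an interval within 1.25-fold, and 1 member, Rps27a without cKO 2, passed a 1.25-fold difference. Leaving out cKO 6 moved the median to 0.003.

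**Figure D1:**
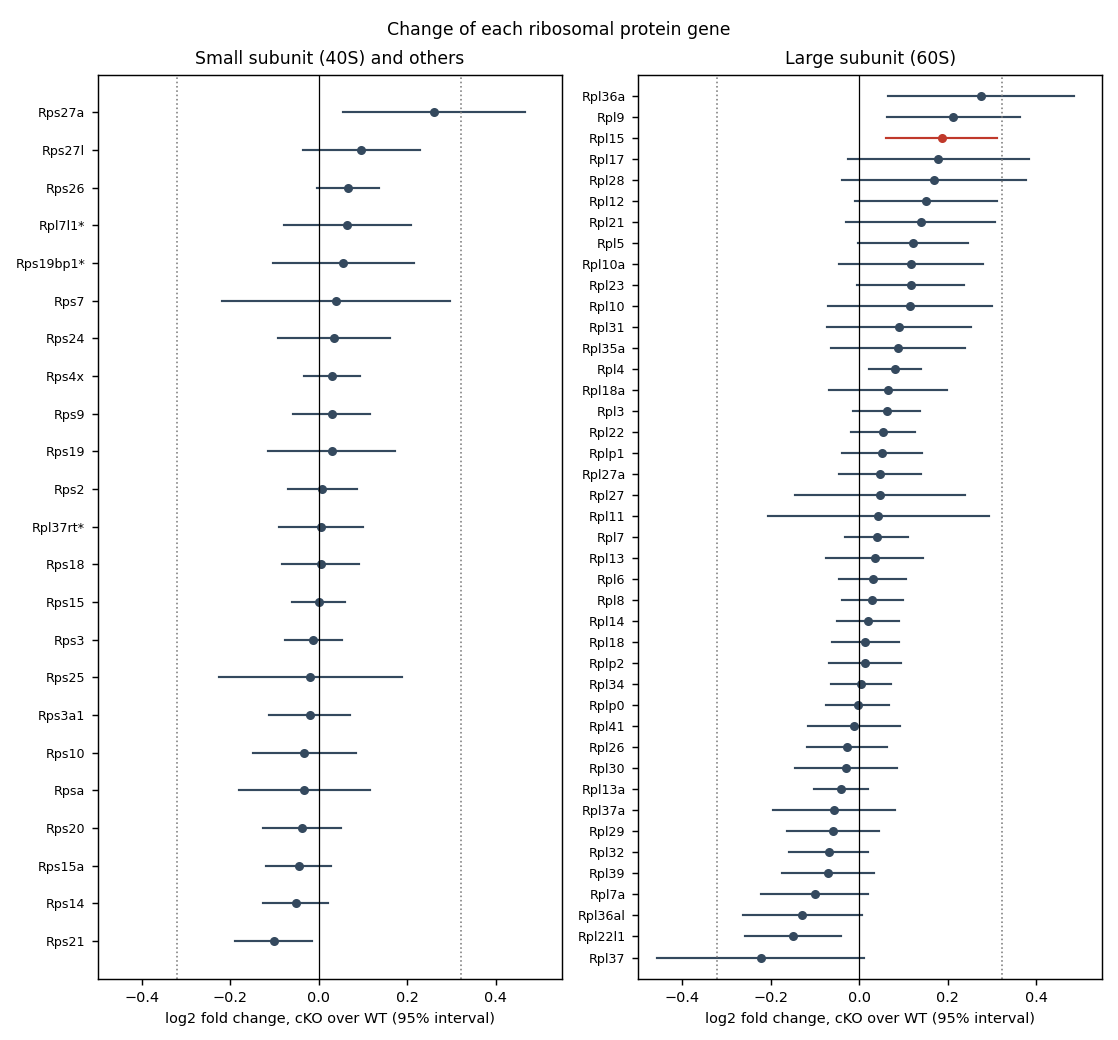
Log2 fold change of 65 of the 69 genes, cKO over WT, with its 95% interval (horizontal lines); 40S genes and the 3 others (marked *) on the left, 60S genes on the right, red where edgeR called the gene, dotted lines at 1.25-fold. Rpl15 is red, and 59 of the 65 intervals stay between the dotted lines.

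**Figure D2:**
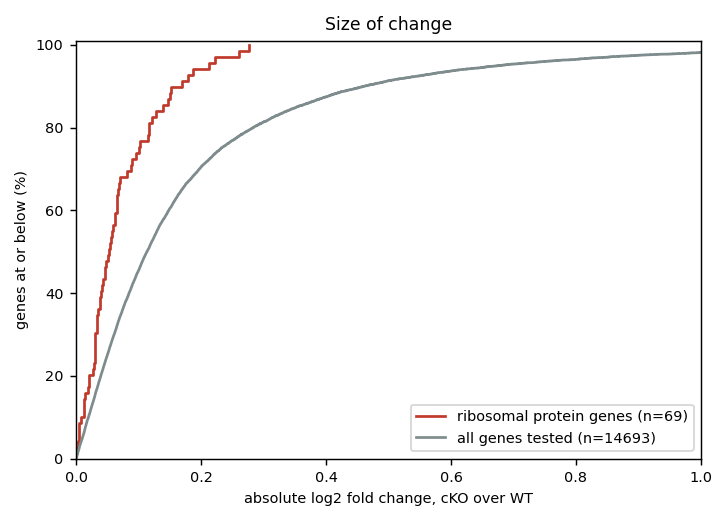
Cumulative share of genes (y, percent) at or below each absolute log2 fold change, cKO over WT (x, shown up to 1), for the 69 ribosomal protein genes (red) and the 14693 genes tested (grey). The red curve ends below 0.3, since the largest difference, that of Rpl36a, was 0.28. The grey curve includes genes with fewer counts than the minimum set for members.

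In 40S genes the median log2 fold change was -0.0008, with 11 positive and 13 negative values and 1 call. In 60S genes it was 0.04, with 29 positive and 13 negative values and Rpl15 the 1 call. No test compared the subunits. The 69 genes together took 1.65%, 1.74%, 1.67% and 1.66% of all counts in cKO 2, 6, 7 and 8, and 1.62%, 1.65%, 1.63%, 1.65% and 1.61% in WT 1, 3, 4, 5 and 9. Every cKO share was above every WT share, narrowly so at the edge, with 1.655% in cKO 2 and 1.653% in WT 5. The difference of the mean shares, 0.0495 percentage points of the counts on tested genes, was larger than the pooled SD of 0.0289. Rpl4, a 60S gene, alone held 518207 of about 3.48e+06 member counts. Without the counts of that row, the share of cKO 2 falls below that of WT 5, so the groups overlap. Of all counts, the share of 60S genes did not overlap either, at 1.02% to 1.07% in cKO samples and 0.985% to 1.01% in WT samples. That of 40S genes did, at 0.605% to 0.642% and 0.598% to 0.616%. With TMM scaling the groups overlapped: the share of all 69 genes was 1.67% ± 0.032 in cKO samples (SD, n = 4) and 1.65% ± 0.020 in WT samples (SD, n = 5). The difference was 0.0229 percentage points against a pooled SD of 0.0259. The 60S shares overlapped with TMM as well. Those of cKO 7 (1.022%) and WT 5 (1.012%) change order when divided by their TMM factors, 1.012 and 0.987. Counts on mitochondrially encoded genes took 2.59% ± 0.138 in cKO samples and 2.38% ± 0.0572 in WT samples, and whether this bears on the ribosomal protein share was not tested.

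Levels per length spanned a wide range among proteins that share one complex. Per kb of merged exons, the mean over the 9 samples ran from 2.26 CPM per kb (Rps25) to 1284 CPM per kb (Rplp1). The order at the top depends on the length used: per kb of the longest transcript Rpl4 came to 1604 and Rpl8 to 1565 CPM per kb, above Rplp1 at 1284, and Rps25 was again lowest, at 4.76. Rplp1, an acidic protein of the stalk that recruits elongation factors, held 1309 ± 42.9 CPM per kb in cKO samples and 1263 ± 63.2 in WT samples (SD, n = 4 and 5). Per kb of merged exons Rpl4, which helps to line the exit tunnel, followed with 1268 ± 20.3 CPM per kb in cKO samples and 1199 ± 22.3 in WT samples, and Rpl8, a protein near the peptidyl transferase centre, with 1188 ± 34.8 and 1164 ± 28.2. At the other end Rps25 held 2.24 ± 0.233 CPM per kb in cKO samples and 2.28 ± 0.165 in WT samples, Rps7 2.78 ± 0.294 and 2.71 ± 0.348, and Rpl21 3.27 ± 0.263 and 2.97 ± 0.190. The ranges of Rplp1, Rpl4 and Rpl8 were close to one another, and those of the 3 lowest genes likewise. The 5 most abundant rows, Rpl4, Rpl8, Rplp0 and Rps3 among them, held 46.8% of the counts of all members.

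Many members share sequence with other genes. Of the 50-base words in a member's principal transcript, a median of 52.6% occurred in no other gene's transcript, against 99.4% for all genes tested. The 12 members with under 25% unique words had a median of 15.6 CPM per kb, the 45 with 25 to 75% had 43.5 CPM per kb, and the 12 with 75% or more had 82.1 CPM per kb. Rows of pseudogenes named after these genes held 386652 counts, and for 9 members they held more than the gene's own row. Rps25-ps1, for example, held 10823 counts and Rps25 itself 1280. Rps10-ps1 held 34931 counts beside 7301 on Rps10, and Rpl14-ps1 78331 beside 51760 on Rpl14. How the authors' counting treated reads that match several places was not given in the sources used here, so the level of any member with a near-identical copy, in particular those with few unique words, is uncertain. The median log2 fold change was 0.09 for the members with under 25% unique words, 0.01 for 25 to 75% and 0.03 for 75% or more, with 0, 2 and 0 members called.

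**Figure D3:**
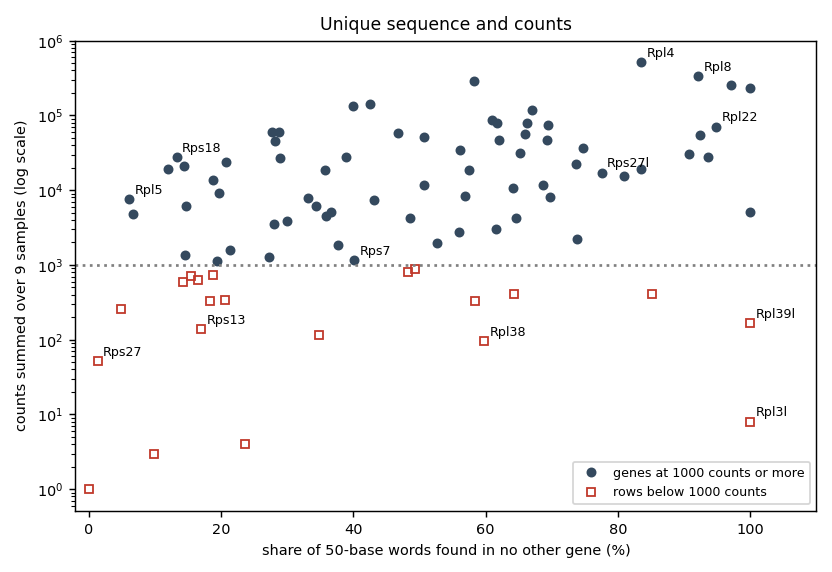
Counts summed over the 9 samples (y, log scale) against the share of a gene's 50-base words found in no other gene (x, percent), for the 69 genes (filled) and the rows below the limit of 1000 counts (open; 2 rows with 0 counts cannot be drawn). Rps27 and Rps13 lie low on the left, and Rpl4, Rpl8 and Rpl22 lie high on the right.

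23 rows fell below 1000 counts, 18 of them typed as protein coding. The nearest to the limit from outside was Rps28 with 878 counts. Also outside it lay genes of core ribosomal proteins: Rps27 had 52 counts in 9 samples, Rpl38 96, Rps13 139, Rpl35 260 and Rps16 332. For Rps13 a single pseudogene row, Rps13-ps2, held 17331 counts, and only 1.35% of the 50-base words of Rps27 were unique to it. 16 of the 23 rows were tested and 0 were called by edgeR, DESeq2 or limma-voom (2 higher and 2 lower at an unadjusted p below 0.05). Estimates on these rows passed 1.25-fold in both directions, with wide errors. Rps28 had a log2 fold change of 0.41 (SE 0.20, edgeR adjusted p = 0.187) and Rpl38 one of -0.67 (SE 0.29, edgeR adjusted p = 0.143). With errors of this size, whether differences on these rows are as small as those in the members cannot be told. The paralogs Rpl10l and Rps27rt had 0 counts in every sample. For Rpl10l, with 92.4% unique words, this allows up to 3 counts per library. Only 8.92% of the words of Rps27rt were unique, so its reads may have been dropped or counted elsewhere, and that bound does not cover them. Rpl3l, the striated muscle form of Rpl3, had 8 counts in all. Further rows named as paralogs were tested without a call, on few counts. Rpl39l, with 167 counts, had a log2 fold change of 0.27 (SE 0.35, edgeR adjusted p = 0.649). Rps4l, typed as a transcribed processed pseudogene and with 415 counts, had one of 0.26 (SE 0.18, edgeR adjusted p = 0.375).

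Rpl15, a 60S protein that occurs among the genes mutated in human Diamond-Blackfan anaemia (chr14:18267823-18271391, minus strand), rose in cKO samples. It held 42.5, 41.2, 42.7 and 41.8 CPM in cKO 2, 6, 7 and 8, and 39.2, 36.4, 32.2, 37.1 and 39.6 CPM in WT 1, 3, 4, 5 and 9. The cKO samples were close together and all above the WT samples, of which WT 4 was lowest. The log2 fold change was 0.19 (SE 0.06, 13.8% higher, edgeR adjusted p = 0.0485). The call was lost without cKO 2, 6, 7 or 8 and without WT 3, 4 or 5, with an adjusted p from 0.0647 (without WT 4) to 0.09996 (without cKO 7). It was also lost with no count filter (0.0723), 1 surrogate variable (0.0588), offsets on GC content and length (0.104) and pseudogene rows added (0.0507).

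The groups did not overlap in 4 members with cKO higher, Rpl15, Rpl4 and Rpl36a among them (5.8%, against 7.08% of all genes tested), and in 2 with cKO lower, Rpl22l1 among them (2.9%, against 8.78%). Rpl4 had the highest count of all members (chr9:64173375-64178666, plus strand). It held 2513, 2571, 2508 and 2588 CPM in cKO samples and 2436, 2411, 2362, 2460 and 2359 CPM in WT samples. Its log2 fold change was 0.08 (SE 0.03, edgeR adjusted p = 0.0650), below the threshold although the groups did not overlap. DESeq2 called it (adjusted p = 0.0159), as did edgeR with upper-quartile scaling (0.0251) and library totals (0.0216) and limma-voom with sample weights (0.0393). Rpl36a, an X-linked 60S gene (chrX:134585654-134588062, plus strand), held 6.62, 7.54, 7.49 and 6.62 CPM in cKO samples and 5.62, 6.44, 6.22, 4.91 and 5.96 CPM in WT samples. Its log2 fold change of 0.28 had an SE of 0.10 (edgeR adjusted p = 0.0740). With 1339 counts in 9 samples and 14.5% unique words, this largest difference stood on a row near the limit of 1000.

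Rps27a and Rpl9 were less sharply separated. Rps27a encodes ubiquitin fused to a 40S protein and so supplies both. It held 15.6, 20.9, 20.03 and 17.5 CPM in cKO samples and 14.3, 17.1, 15.7, 13.9 and 16.2 CPM in WT samples, so that cKO 2 lay inside the WT range. The log2 fold change was 0.26 (SE 0.09, edgeR adjusted p = 0.0850; 0.0270 without cKO 2 and 0.0447 with 1 surrogate variable). Rpl9, a 60S protein, held 22.1, 24.9, 26.5 and 25 CPM in cKO samples and 21.6, 21.7, 19.8, 19.6 and 23.3 CPM in WT samples, a log2 fold change of 0.21 (SE 0.07, edgeR adjusted p = 0.0571). Here too cKO 2 lay within the WT range. The adjusted p of Rpl9 was 0.0260 without cKO 2 and 0.0420 without WT 9. Rpl9 was also called by DESeq2 (0.0469), with upper-quartile scaling (0.0397), library totals (0.0424), sample weights in limma-voom (0.0262) and 1 surrogate variable (0.0243), and its unique share was 6.68%.

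**Figure D4:**
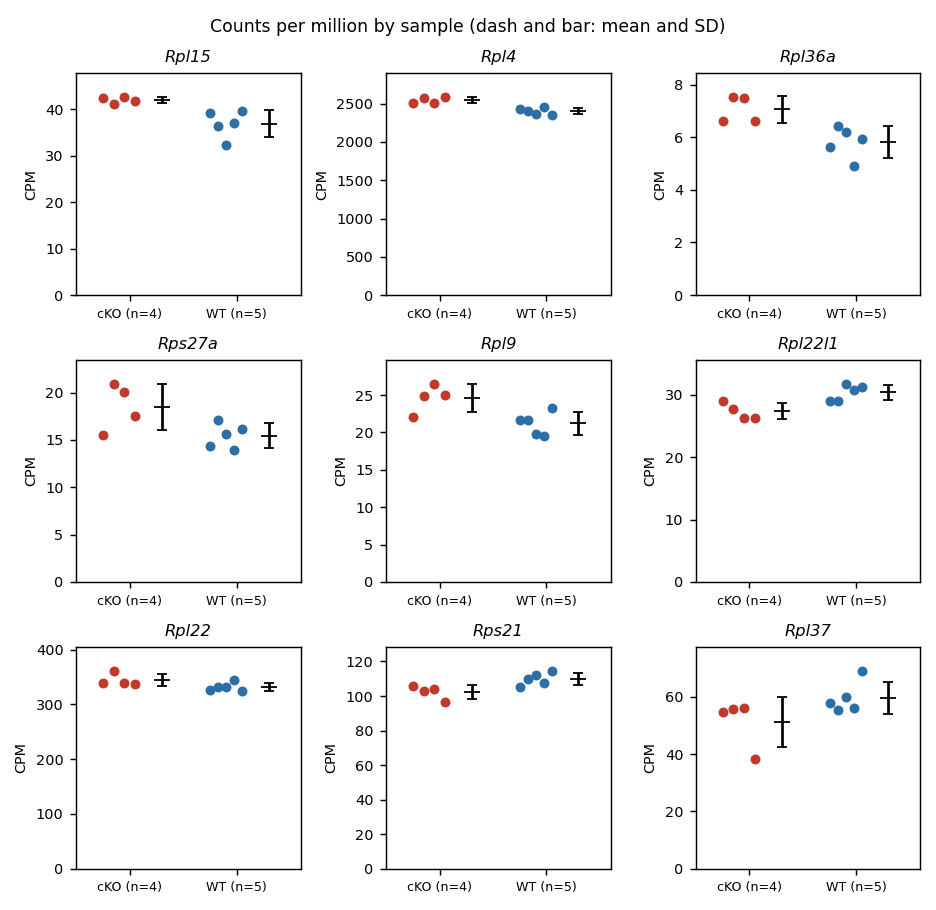
CPM (y, from 0) in each cKO sample (red, left, n = 4) and WT sample (blue, right, n = 5) for 9 genes, with the mean and SD of each group in black. Rpl15, Rpl4 and Rpl36a have every cKO sample above every WT sample and Rpl22l1 every cKO sample below, and cKO 8 alone is low for Rpl37.

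Some paralogs of ribosomal proteins can replace their parent in the ribosome. In mouse, Rpl22 is known for its part in the development of alpha-beta T cells, and its paralog Rpl22l1 is known to increase where Rpl22 is lost. Rpl22l1 (chr3:28805436-28807424, plus strand) held 28.97, 27.8, 26.3 and 26.3 CPM in cKO samples and 28.99, 29.1, 31.8, 30.8 and 31.2 CPM in WT samples. The groups touched without overlapping, at cKO 2 and WT 1. Its log2 fold change was -0.15 (SE 0.05, edgeR adjusted p = 0.0613). It passed the threshold without cKO 2 (0.0435), without WT 1 (0.0436), with sample weights in limma-voom (0.0395) and with offsets on GC content and length (0.0424). Rpl22 itself (chr4:152325742-152334071, plus strand) held 339.7, 361, 339.6 and 338 CPM in cKO samples and 326, 332, 332, 344 and 325 CPM in WT samples, with a log2 fold change of 0.05 (SE 0.03, edgeR adjusted p = 0.292). The counts of Rpl22l1 came to 8.53%, 7.69%, 7.75% and 7.78% of those of Rpl22 in cKO 2, 6, 7 and 8, and to 8.89%, 8.75%, 9.55%, 8.96% and 9.60% in WT 1, 3, 4, 5 and 9. Every cKO ratio was below every WT ratio; the ratio was chosen with the values of both genes known and was not tested.

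The other pairs gave no call in the reported fit either. Rpl36al, an intronless copy of Rpl36a, held 23.1 ± 1.98 CPM in cKO samples and 25.3 ± 0.953 CPM in WT samples, with a log2 fold change of -0.13 (SE 0.06, edgeR adjusted p = 0.183). Its counts were 3.71, 3.09, 3.25 and 3.06 times those of Rpl36a in cKO samples and 4.59, 3.91, 4, 4.88 and 4.44 times in WT samples, again without overlap and untested, and it shares sequence with its parent. Rps27l, a paralog of Rps27 known as a p53 target in human cells, held 84.5 ± 6.36 CPM in cKO samples and 79.1 ± 5.24 CPM in WT samples (log2 fold change 0.10, edgeR adjusted p = 0.308). Rpl7l1 (0.06), Rpl7 (0.04), Rpl3 (0.06), Rpl10 (0.11), Rpl39 (-0.07) and Rps4x (0.03) had log2 fold changes of which that of Rpl3 had the smallest adjusted p (edgeR, 0.250). Of the 4 X-linked members, Rpl10, Rpl36a, Rpl39 and Rps4x, 0 were called by edgeR or DESeq2, and 1, Rpl36a, had an unadjusted p below 0.05.

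Of the 26 members with lower values in cKO samples, 2 had an unadjusted p below 0.05, Rpl22l1 and Rps21. Rps21, a 40S protein (chr2:180257377-180258445, plus strand), held 105.9, 103, 104 and 96.4 CPM in cKO samples and 105.1, 109.6, 112, 107.7 and 115 CPM in WT samples. The groups overlapped only at cKO 2 and WT 1, and the log2 fold change was -0.10 (SE 0.04, edgeR adjusted p = 0.105). Rpl37, singled out after its values were seen because it had the largest difference in the negative direction, held 54.6, 55.8, 55.9 and 38.3 CPM in cKO samples and 57.7, 55.4, 59.98, 56.2 and 69.1 CPM in WT samples. Both extremes were single samples, cKO 8 and WT 9. Its log2 fold change was -0.22 (SE 0.11, edgeR adjusted p = 0.182) and came to -0.11 without cKO 8 and -0.16 without WT 9.

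Single samples stood apart from the rest of their group. cKO 6 was the highest of the 9 samples in 27 members, and cKO 8 and WT 9 were the lowest in 16 and 15. Against the mean of its own group, cKO 6 was more than 10% higher in 12 members and more than 10% lower in 0, while cKO 2 was more than 10% lower in 9 and more than 10% higher in 0. The median coefficient of variation of the members was 5.11% in cKO samples and 3.93% in WT samples (all genes tested with at least 5 CPM: 5.56% and 5.84%). That of Rps7, on a row of 1157 counts, was 12.8% in WT samples.

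**Figure D5:**
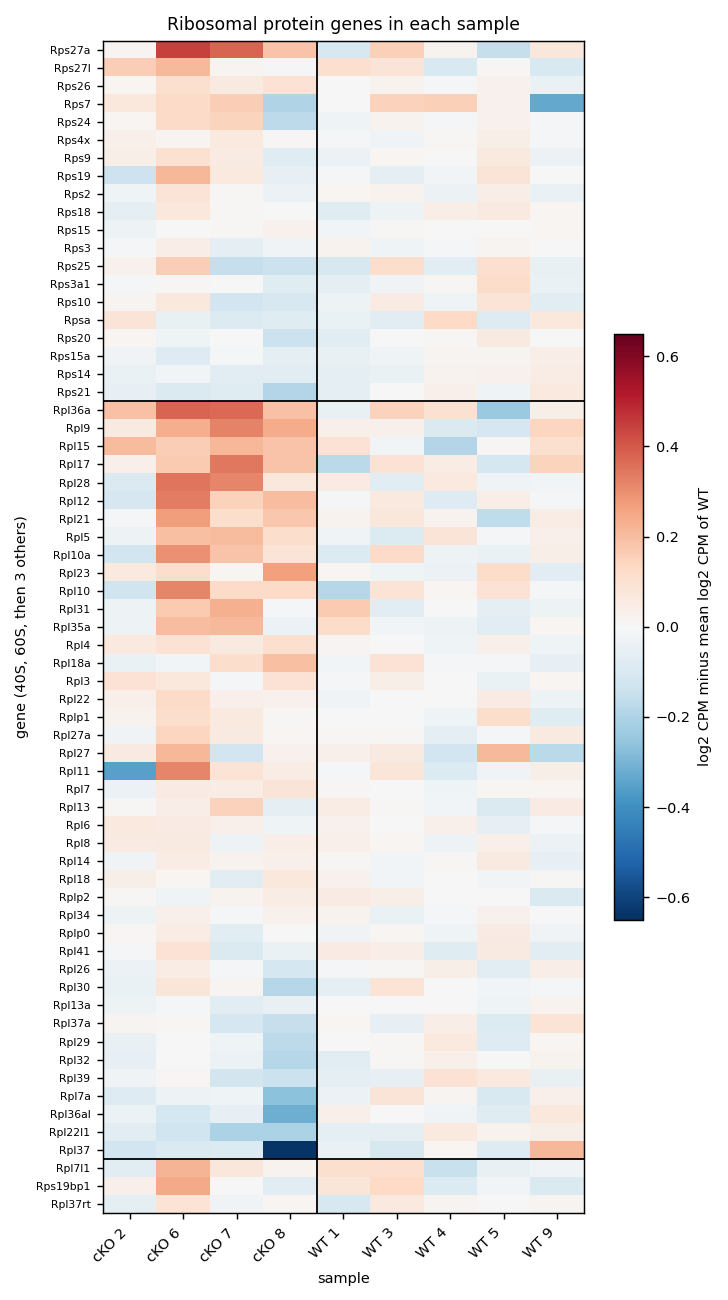
Log2 CPM of 65 of the 69 genes (rows; 40S, 60S, then 3 others, each in order of fold change) in each sample (columns; cKO left, WT right), minus the mean log2 CPM of the 5 WT samples. Red is higher and blue lower; cKO 6 is the reddest column, and the darkest blue cell is Rpl37 in cKO 8.

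Promoter sequences are shown for some of the genes named above, to place the TOP motif and other core elements at their starts. Others with group differences, such as Rpl9, Rpl36a and Rps27a, are not shown. RefSeq (GRCm38.p6) gave 300 bases, 250 before and 50 from the start, for 52 of the 69 members. Each line holds the 40 bases before the start and 15 from it, on the gene's strand, with pyrimidine runs of at least 7 that begin with C, TATAA and CCGGAAG (either strand) in capitals.
Rpl15, chr14:18270972-18271026, minus strand: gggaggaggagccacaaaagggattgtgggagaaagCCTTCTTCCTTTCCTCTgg
Rpl4, chr9:64173347-64173401, plus strand: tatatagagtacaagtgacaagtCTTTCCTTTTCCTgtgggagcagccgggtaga
Rps21, chr2:180257339-180257393, plus strand: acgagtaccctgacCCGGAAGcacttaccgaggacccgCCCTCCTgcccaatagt
Rpl22l1, chr3:28805468-28805522, plus strand: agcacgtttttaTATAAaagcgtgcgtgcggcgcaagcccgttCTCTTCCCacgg
Rpl22, chr4:152325686-152325740, plus strand: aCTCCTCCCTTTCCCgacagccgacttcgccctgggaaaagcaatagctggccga

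The RefSeq start lay within the pyrimidine run in Rpl15, a run of 17, and in Rps21, a run of 7. The GENCODE start of Rps21, 2 bases upstream, lay in the run as well, whereas that of Rpl15, 405 bases upstream, did not. In Rpl4 the run of 13 lay 17 to 5 bases before the RefSeq start, and the GENCODE start, 12 bases further upstream, fell inside it. In Rpl22l1 TATAA lay 28 to 24 bases before the RefSeq start, but the GENCODE start, 72 bases upstream, came ahead of it. Rpl22 had a run of 14 that lay 39 to 26 bases before the start. A run CNNNNNN of 7 in which every N is C or T, on the sense strand from 10 bases before to 17 after the start, occurred in 23 of the 52 members (44.2%) and in 14.1% of the 27025 genes with a sequence. CCGGAAG on either strand, the core of sites for ETS factors such as GABPA, occurred in the 300 bases of 21 members (40.4%) and 9.93% of all genes. AAGATGG on either strand, the core of YY1 sites, occurred in 8 members (15.4%) and 7.28% of all genes. TATAA on the sense strand, 40 to 20 bases before the start, occurred in 3 members (5.77%), Rpl22l1, Rps18 and Rps9, and in 3.99% of all genes. These matches describe letters in a window and say nothing of binding.

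Ribosomal proteins whose symbols lie outside the rule gave no call. Fau, which encodes a ubiquitin-like protein fused to the 40S protein eS30, had a log2 fold change of 0.04 (edgeR adjusted p = 0.875) on 358 counts. Rack1, the signalling scaffold on the 40S head, had one of 0.01 (edgeR adjusted p = 0.781) at 1585 ± 42.7 CPM in cKO samples and 1570 ± 11.8 CPM in WT samples. Of the 4 stalk proteins, 0 were called by edgeR or DESeq2, and 0 had an unadjusted p below 0.05. Among proteins that bind Mdm2 and so link ribosome assembly to p53, 0 of 9 tested were called by edgeR or DESeq2 (1 higher at an unadjusted p below 0.05), and among the genes mutated in human Diamond-Blackfan anaemia 1 of 18 was called higher, which was Rpl15, and 0 lower.

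Of 28 translation initiation factors, 3 rose (10.7%, against 7% of all genes tested) and 0 fell: the RNA helicase Eif4a2 (0.16, SE 0.04, edgeR adjusted p = 0.0250), the subunit joining factor Eif5b (0.23, SE 0.06, edgeR adjusted p = 0.0311) and the GTPase activator Eif5 (0.15, SE 0.04, edgeR adjusted p = 0.0449). Eif4a2 held 360 ± 17.3 CPM in cKO samples and 322 ± 11.4 CPM in WT samples, and Eif5b 309 ± 15.5 and 264 ± 23.4 CPM. With offsets on GC content and length the adjusted p was 0.188 for Eif4a2 and 0.0681 for Eif5b. The calls of Eif4a2, Eif5b and Eif5 held in 17, 16 and 12 of 22 alternative fits. Of 7 elongation factors edgeR called 0 and DESeq2 called 1, higher in cKO samples (1 at an unadjusted p below 0.05). Of 11 regulators of TOP mRNA translation, among them Mtor and Larp1, 0 were called by edgeR or DESeq2 (2 higher at an unadjusted p below 0.05).

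Of 17 genes of rRNA synthesis and processing, 1 was called higher (5.88%, against 7% of all genes tested) and 0 lower. The gene called was Nop56, a core protein of the box C/D ribonucleoproteins that guide rRNA methylation. It held 253 ± 17.6 CPM in cKO samples and 224 ± 12.9 CPM in WT samples, a log2 fold change of 0.18 (SE 0.05, edgeR adjusted p = 0.0466; 0.136 without cKO 6; called in 14 of 22 alternative fits). The list's median log2 fold change was 0.16 (all genes tested: 0.0012), with 14 positive and 3 negative values, and 12 of the 17 had an unadjusted p below 0.05 with cKO higher, against 14.9% of all genes tested. DESeq2 called 5 of the 17 higher, a count without its share over all genes to set it against. Of 18 ribosomal protein chaperones and subunit assembly factors edgeR called 0 and DESeq2 1, higher in cKO samples (median 0.07; 3 higher at an unadjusted p below 0.05). Of 9 genes of ribosome rescue and quality control 0 were called higher and 1 lower, the GTPase gene Gtpbp1, at 180 ± 4.68 CPM in cKO samples and 199 ± 7.14 CPM in WT samples (log2 fold change -0.14, SE 0.04, edgeR adjusted p = 0.0226; called in 18 of 22 alternative fits).

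Proteins of the mitochondrial ribosome, encoded by separate nuclear genes, served as a comparison of like function. Of 76 tested, edgeR called 0 higher and 8 lower in cKO samples, against 7% and 8.82% of all genes tested; DESeq2 called 1 higher and 7 lower, and at an unadjusted p below 0.05 there were 4 higher and 12 lower. Mrpl18 held 107 ± 3.64 CPM in cKO samples and 118.5 ± 1.47 CPM in WT samples (log2 fold change -0.14, SE 0.03, edgeR adjusted p = 0.0163), and Mrpl58, a peptidyl-tRNA hydrolase within the large subunit, 37.4 ± 0.770 and 41.3 ± 1.04 CPM (-0.14, SE 0.04, edgeR adjusted p = 0.0259). The call of Mrpl18 was lost with offsets on GC content and length (0.0686) and without cKO 6 or 8, and that of Mrpl58 with library totals (0.0571), with no count filter (0.0660) and without cKO 6 or 7 or WT 3, 4 or 9. The median over the 76 was 0.01, with 44 positive and 32 negative values.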

How the data were processed

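RNA was measured in 9 samples (4 cKO, 5 WT). Per the labels' protocols, a Direct-zol kit gave the RNA and a KAPA kit, which enriches mRNA, the stranded libraries. Raw counts of reads, unnormalized whole numbers with a row per gene, were deposited in 1 table. The submitters' processing notes name bcl2fastq 2.17 and mm10. Aligner, counting tool, strand setting and gene models were not given in the sources used here, and 0 columns belonged to no sample. Symbols (37693 of 39017 IDs matched), positions and transcripts were those of GENCODE M21 (mm10).

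These counts were compared with the quasi-likelihood test of edgeR 4.0.16 (R 4.3.3), two-sided, with TMM, filterByExpr, no covariate and Benjamini-Hochberg adjustment over 14693 genes. Alternatives used limma 3.58.1, DESeq2 1.42.0, sva 3.50.0, other scalings, filters and member limits, offsets on GC content and length, and each sample left out. Adding pseudogene rows to their parent was chosen after seeing the data. On simulated data for this comparison with 14693 genes, edgeR found 42% of 50 genes changed 1.2-fold and 80% of 50 changed 1.5-fold. A count of 0 allows up to 3 counts; this floor covers counting error only, because without molecular identifiers several reads can stem from one molecule.

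The members and lists were chosen with earlier results of these data known. Named were Kdm6a, Uty, paralogs with their parents, Fau, Rack1, the 8 members with the smallest p, the 3 highest and 3 lowest per kb, the nearest to the count limit, the 2 most variable in WT, and up to 2 called genes of each other list; others are named as part of a count. Some genes that the rule takes are counted but not reported here by name.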

Additional observations from a re-analysis of the deposited data

Results flagged for a closer look

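In 9 of 190 groups of values examined (each gene or share, cKO and WT apart), 1 sample lay far from the rest of its group; chance flags about 1 in 20. The share of TMM-scaled counts in the 69 genes was 1.72% in cKO 6, against 1.65% in each other cKO sample. Rpl22 stood at 361 CPM in cKO 6, against 338 to 339.7 CPM in the other cKO samples. The counts of Rpl22l1 were 8.53% of those of Rpl22 in cKO 2, the cKO sample nearest to WT, against 7.69% to 7.78% in the other cKO samples. Rpl8 stood at 1544 CPM in cKO 7, against 1631 to 1644 CPM. Rpl37 stood at 38.3 CPM in cKO 8, against 54.6 to 55.9 CPM. Gtpbp1 stood at 187 CPM in cKO 8, against 177 to 178 CPM, and Mrpl18 at 113 CPM in cKO 2, against 105 to 106 CPM. In WT samples Rpl21 stood at 8.97 CPM in WT 5, against 10.2 to 10.6 CPM, and Rpl31 at 20.3 CPM in WT 1, against 17.1 to 18.04 CPM.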

How the results depend on the processing

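No paired analysis was made because the labels used here give no pairing of cKO and WT samples. The replicate numbers are serial library numbers and carry no such information. The count of members called higher was 2 in the reported fit and 2 or 3 with DESeq2 size factors, TMM factors set without the members, a stricter filter, limma-voom, robust estimation, 1 surrogate variable, a limit of 100 counts or ribosome subunits only. It was 4 with upper-quartile scaling, library totals, DESeq2 and limma-voom with sample weights. It was 1 with offsets on GC content and length, with pseudogene rows added and with a limit of 10000 counts, and 0 with no count filter or a threshold of 0.01. It was 6 at a threshold of 0.10. The count called lower was 0, except 1 with sample weights, with the GC and length offsets and at 0.10. With 1 sample left out at a time, 0 to 5 were called higher and 0 to 1 lower: 5 and 1 without cKO 2; 0 and 0 without cKO 6, 7 or 8 or WT 3 or 4; 1 and 0 without WT 5; 2 and 1 without WT 1. The median log2 fold change stayed between 0.003 and 0.05. The difference in summed share was 0.023 percentage points and 0.0495 with library totals. At a threshold of 0.05 Rpl15 was called in 11 of 22 alternative fits. The log2 fold change changed sign in at least 1 of these fits in 25 of the 69 members (22 with 1 sample left out), none of them called in the reported fit and none beyond 0.07 there in size. Of the genes named by the rule, 4 changed sign. Rps25 came to 0.0041 with library totals, 0.0108 with GC and length offsets and -0.0842 to 0.0207 with 1 sample left out. Rps7 came to -0.0188 with sample weights and -0.0373 to 0.111 with 1 sample left out. Fau came to -0.0415 with sample weights, -0.0263 with 1 surrogate variable and -0.0601 to 0.121 with 1 sample left out, and Rpl39l, at 0.27 in the reported fit, to -0.0595 to 0.596. The causes were not tested. Over all genes, upper-quartile scaling called 1265 higher and 1068 lower and library totals 1349 and 1026, against 1028 and 1296 in the reported fit. The median of all genes was 0.0012 in the reported fit, 0.020 with upper-quartile scaling and 0.024 with library totals. That of the members was 0.030, 0.048 and 0.053 in the same fits. The simulated recovery of 42% at 1.2-fold was for genes drawn at random above 1 CPM, not for the members. Recovery among the members was not simulated, and their median SE was 0.047, against 0.075 for all genes tested. What a missing call can show for a member was therefore not measured.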
